A study of Mus musculus with 3 samples.

Results

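Intermediate filament genes were examined in mouse choroid plexus epithelium (CPE), the cell layer that secretes cerebrospinal fluid. Members were all non-control probes whose scanner gene name was a keratin (Krt), a neurofilament (Nefl, Nefm, Nefh), a lamin (Lmna, Lmnb1, Lmnb2), Vim, Des, Gfap, Ina, Nes, Sync or Prph (named Prph1 in the files). This rule used names alone and gave 71 of 41174 probes, for 55 of 27845 gene names. Of these genes 41 had 1 probe and 14 had several. Krt12, the keratin of the corneal epithelium, had no probe under the rule.

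Each of 3 healthy, untreated female adult C57BL/6 mice (18 to 21 weeks old) gave 1 array. CPE cells were laser-dissected from the lateral ventricles on whole-brain cryosections, and their amplified RNA was labelled with Cy5. The same RNA of C57BL/6 retinal pigment epithelium (RPE) and choroid, labelled with Cy3, was the reference on every array, with no dye swap. A ratio in CPE therefore sets 3 mice against 1 reference RNA whose own spread between animals is not in any error below, and a dye effect cannot be told apart from the tissue. Levels of different probes cannot be compared with each other as amounts of RNA. The percentiles, classes and summed levels below order or add probe intensities and carry this limit.

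Intermediate filaments are the rope-like part of the cytoskeleton. Epithelia build them from pairs of an acidic (type I) and a basic (type II) keratin. Simple, single-layered epithelia typically use Krt8 with Krt18 and often Krt7 or Krt19, whereas stratified epithelia use Krt5 with Krt14 or Krt15 in their basal layer and other pairs above it. Mesenchymal cells use vimentin, muscle uses desmin, astrocytes use GFAP and neurons use the neurofilament proteins. Lamins form the meshwork under the nuclear envelope in nearly every cell. Mouse type I keratin genes lie together on chromosome 11 and type II genes on chromosome 15. The type I gene Krt18 is the exception and lies beside Krt8 on chromosome 15.

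The dissected cells carried CPE markers. Here and below each marker gene was read by 1 probe, the brightest over both channels. All 7 measured CPE markers were above the 90th percentile of intensity, and 6 of them were higher in CPE than in the reference. These included Kl (log2 ratio 5.42) and Kcne2 (4.17). Ttr, transthyretin, was also higher, but its CPE signal was at the scanner's ceiling on all 3 arrays, so no ratio is given. In the reference, 5 of 6 RPE markers and 6 of 6 photoreceptor markers were higher than in CPE, as were 4 of 5 lens and 5 of 6 tested skeletal muscle markers. Their part in the ratios below was not tested, and in such bulk RNA fewer cells of a type and less RNA per cell cannot be told apart. The array of mouse 3 stood apart. Its CPE background level was 363 intensity units against 81.2 and 82.6 on the other arrays, and 85.6% of all probes were called well above background there, against 58.5% and 46.0% in mice 1 and 2. Of the members, 42, 34 and 66 of 71 were well above background in CPE of mice 1, 2 and 3. In the reference channel these counts were 50, 47 and 65.

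Over all 3 mice, 33 members were well above background in CPE on every array (46.5% of members), beside 44.9% of all probes. Another 26 were so in mouse 3 alone, beside 29.2% of all probes. In the reference 43 members were well above background on every array, beside 61.5% of all probes. In 18 of the 26 the reference was also well above background on array 3 alone. Ranked by intensity in CPE among all probes, 7 of 71 members were in the high class (above the 90th percentile, where 10% of all probes lie by definition), 33 were moderate (50th to 90th), 28 low (10th to 50th) and 3 very low. The 7 high probes were Krt18, both Krt8 probes, Krt15, Krt5, Vim and 1 of 3 Lmna probes. The ranks use intensity without background correction, so a moderate class does not by itself mean signal above background. Krt26, for example, was moderate with percentiles 43.4, 32.5 and 77.0, but was well above background in CPE of mouse 3 alone.

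**Figure D1:**
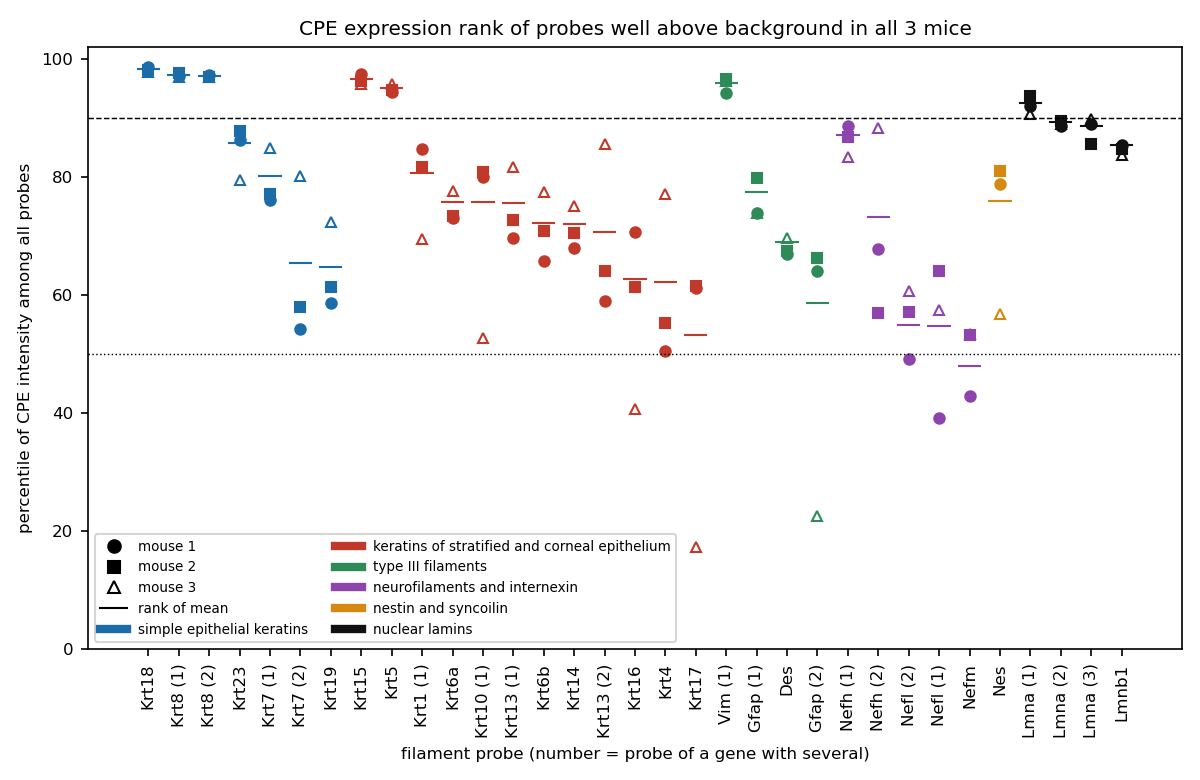
Percentile of CPE intensity among all probes (vertical axis) for the 33 filament probes well above background in all 3 mice, by role; symbols are mice and bars the rank of the mean. Krt18, Krt8, Krt15, Krt5 and Vim sat above the 90th percentile (dashed line) in every mouse, while Krt17, Krt10 and a Gfap probe ranked lower in mouse 3 than in mice 1 and 2.

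For the ratio, 45 of the 71 members could be tested, having signal well above background in CPE or in the reference on each of the 3 arrays. A probe was called at an adjusted p under 0.05 (limma with Benjamini-Hochberg over all 25841 tested probes) and a change of at least 2-fold. In CPE, 2 members were higher, beside 7.09% of all tested probes. In CPE, 18 members were lower, beside 10.2% of all tested probes. The remaining 25 were not called. Calls in either direction were 20 of 45 members, beside 17.3% of all tested probes. Without mouse 3 the counts were 2 higher and 19 lower. The median log2 ratio was −0.48 over the tested members and −0.04 over all tested probes. Each of the 18 lower probes, for 15 genes, was below 0 in all 3 mice, and both higher probes were above 0 in all 3. The calls were made from these same ratios, which nearly fixes the shared sign, so it adds no separate support. Of the 18, 16 were well above background in both tissues on every array, and the other two (Krt80 and Krt75) entered the test only through the reference. Both higher probes (Krt1 and a Gfap probe) entered only through CPE.

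**Figure D2:**
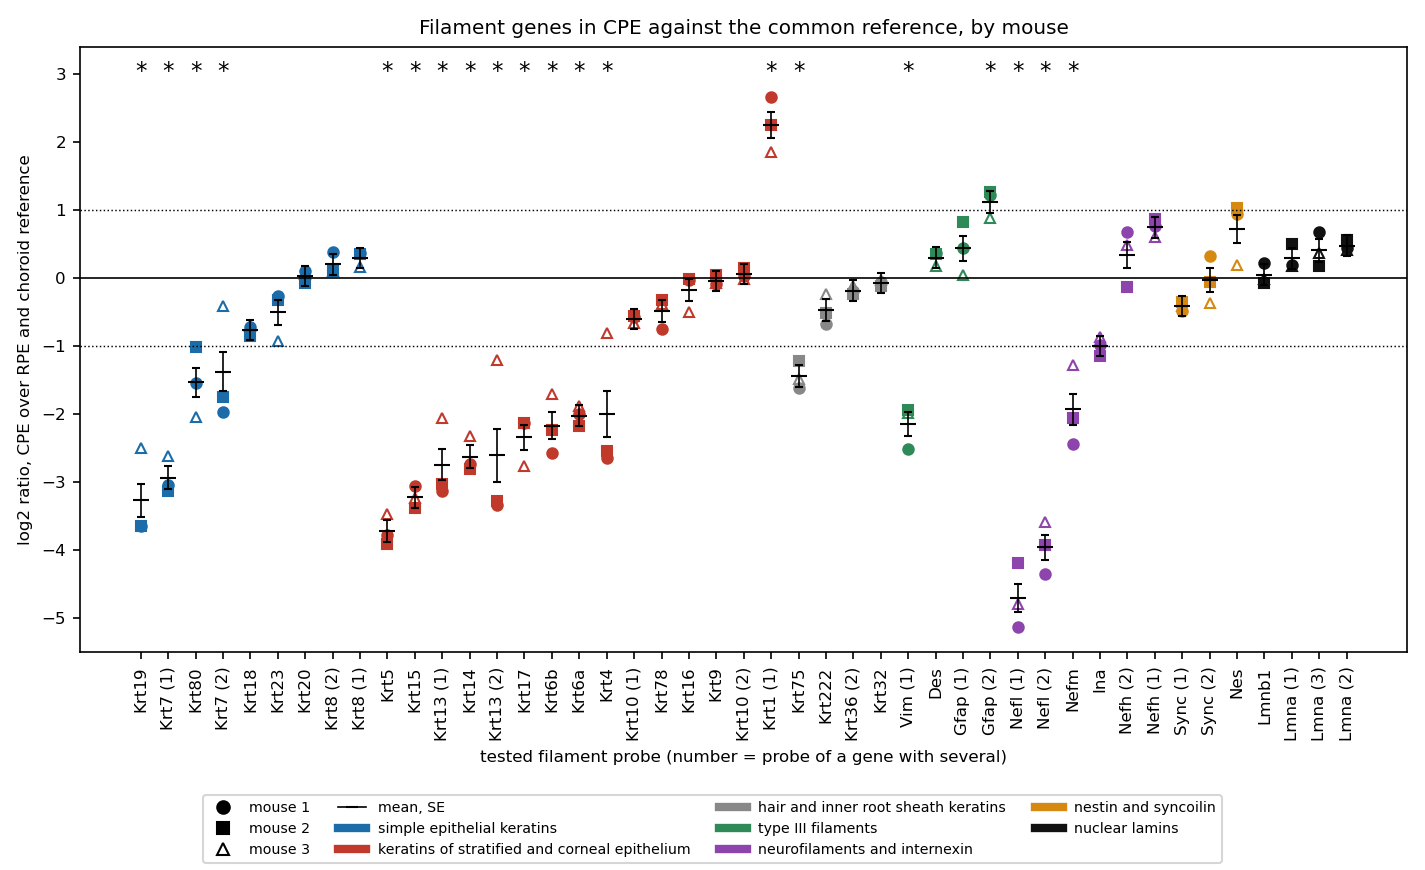
Log2 ratio of CPE over the reference (vertical axis) for the 45 tested filament probes, grouped by role; symbols are mice, horizontal bars the mean with its SE, asterisks called probes and dotted lines a 2-fold change. Most stratified keratins and the Nefl and Nefm probes sat below −1, the Krt8 and lamin probes lay near 0, and Krt1 was above 1 in all 3 mice.

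Among the simple epithelial keratins, Krt18 and Krt8 were in the high class in every mouse. Krt18, the type I partner of Krt8, had log2 levels of 12.93, 12.57 and 12.45 in the CPE of mice 1, 2 and 3. It was at percentiles 98.5, 98.1 and 97.8 of all probes. In the reference it was at 13.64, 13.43 and 13.16, above the CPE on each array. Its log2 ratio was −0.76 ± 0.15 (SE, n = 3, adjusted p = 0.00613 by limma), which is less than 2-fold and was not called. It turned to 0.09 when arrays were centred on the median in place of loess. In mice 1, 2 and 3 it was then 0.68, 0.39 and −0.79. The probe (NM_010664) lies at chr15:101859944-101860003 on the plus strand in mm8.

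Krt8, the type II partner, varied little between mice. Its brighter probe had CPE levels of 12.15, 12.30 and 12.06 and reference levels of 11.79, 11.94 and 11.89, with the CPE above the reference on each array by a small margin. The log2 ratio was 0.30 ± 0.15 (SE, n = 3, adjusted p = 0.163) and that of the second probe 0.20 ± 0.16 (SE, adjusted p = 0.346 by limma), neither called. After median centring the ratios were 1.07 (adjusted p = 0.0423 by limma, called) and 0.97. For the brighter probe mice 1, 2 and 3 were then at 1.64, 1.47 and 0.10, so the rise lay in mice 1 and 2. Both probes (NM_031170) lie on the minus strand, the first at chr15:101824817-101824876. Krt8 and Krt18 were thus high in the CPE on every array without being called different from the reference under loess.

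Other simple keratins were lower in CPE. Krt19, a type I keratin of ducts and simple epithelia, had CPE levels of 7.49, 7.61 and 8.47 against 11.13, 11.26 and 10.98 in the reference, so the tissues did not overlap. The log2 ratio was −3.27 ± 0.25 (SE, n = 3, adjusted p = 7.45e-05), that is 9.64-fold higher in the reference. Krt7, a type II keratin of glandular and ductal epithelia, had CPE levels of 8.89, 8.86 and 9.62 against 11.94, 12.00 and 12.24 (log2 ratio −2.93 ± 0.17, adjusted p = 2.44e-05 by limma). The second Krt7 probe was also lower (−1.37 ± 0.29), but its ratio in mouse 3 was −0.41, beside −1.96 and −1.75 in mice 1 and 2. It did not pass a test against a 2-fold change.

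Krt80 was well above background in CPE on no array. Its reference level was at least 2.65-fold higher (bound from the lowest detectable CPE signal, 2.43 to 3.05 with 1 mouse left out), with a fitted log2 ratio of −1.53 (adjusted p = 0.00129 by limma). Krt23, at percentiles 86.3, 87.8 and 79.5, had a log2 ratio of −0.51 ± 0.18 (adjusted p = 0.0616 by limma), which turned to 0.10 with median centring. Krt20, an intestinal keratin, had CPE levels of 6.76, 6.60 and 8.38 and was well above background in CPE of mouse 3 alone. Its log2 ratio was 0.03. In all, 4 of 9 simple keratin probes were lower, none was higher and 5 were not called (median log2 ratio −0.76).

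The Krt8, Krt18 and Krt7 promoters are shown because these simple keratins differed in their ratio. Sequences are the 250 bases before the start site from RefSeq (build GRCm38.p6), 5′ to 3′ on the gene's strand. The 3 motifs were searched on both strands and would be in capitals: TATAAA (the TATA box), GGGCGG (the GC box) and CCAAT (the box of that name). Only exact matches were sought, so a variant of a box would be missed. The matches do not overlap in the windows printed here. Krt8 (chr15:102004343-102004592, minus strand) and Krt18 (chr15:102027966-102028215, plus strand) held none of them, and Krt7 (chr15:101412153-101412402, plus strand) held 4 GC boxes.
Krt8: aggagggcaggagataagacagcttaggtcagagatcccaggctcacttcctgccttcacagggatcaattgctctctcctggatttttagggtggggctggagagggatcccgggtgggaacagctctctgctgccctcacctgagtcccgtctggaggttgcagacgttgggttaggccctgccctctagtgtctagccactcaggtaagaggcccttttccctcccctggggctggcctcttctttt
Krt18: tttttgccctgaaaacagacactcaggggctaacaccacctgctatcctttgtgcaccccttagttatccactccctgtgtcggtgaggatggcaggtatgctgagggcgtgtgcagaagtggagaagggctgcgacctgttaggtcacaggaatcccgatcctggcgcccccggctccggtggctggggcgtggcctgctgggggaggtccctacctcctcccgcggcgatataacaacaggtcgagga
Krt7: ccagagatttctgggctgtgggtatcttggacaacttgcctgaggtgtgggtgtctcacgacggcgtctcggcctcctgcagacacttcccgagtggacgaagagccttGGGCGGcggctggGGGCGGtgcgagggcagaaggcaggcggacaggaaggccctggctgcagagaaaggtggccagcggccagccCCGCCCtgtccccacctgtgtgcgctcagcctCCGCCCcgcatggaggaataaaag

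Keratins of stratified and corneal epithelium were mostly lower in CPE. Of 20 probes, 15 were tested: 9 were lower, 1 higher and 5 not called, with a median log2 ratio of −2.02. Krt5 and Krt15, the type II and type I keratins of basal cells, were nonetheless in the high class in CPE. Krt5 had CPE levels of 11.21, 11.16 and 11.53 (percentiles 94.5, 94.7 and 95.7) and a reference level of 15.02 ± 0.04 (SD, n = 3 arrays), highest on array 2 (15.07). The tissues lay far apart on each array. The log2 ratio was −3.72 ± 0.16 (SE, n = 3, adjusted p = 8.99e-06), that is 13.2-fold higher in the reference (NM_027011, chr15:101535117-101535176, minus strand).

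Krt15 had CPE levels of 12.22, 11.67 and 11.56 (percentiles 97.4, 96.3 and 95.7) against 15.28, 15.05 and 14.79 in the reference. Krt15 had a log2 ratio of −3.22 ± 0.16 (SE, n = 3, adjusted p = 1.24e-05), that is 9.35-fold higher in the reference (NM_008469, chr11:99948116-99948175, minus strand). With median centring, Krt5 was at −2.87 and Krt15 at −2.34, both still called. When only probes well above background in CPE were ranked, 5 of the 7 high members stayed above the 90th percentile. Krt15 was among those that stayed. Krt5 and the high Lmna probe, the lowest ranked of the 7, fell below it, so the high class of Krt5 depended on which probes were ranked.

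Krt14, the usual basal partner of Krt5, had CPE levels of 8.20, 8.28 and 8.72 against 10.94, 11.09 and 11.04, with no overlap (log2 ratio −2.63 ± 0.17, adjusted p = 3.70e-05 by limma). The suprabasal pair of mucosal epithelia, Krt13 and Krt4, was lower too. The Krt13 probes had log2 ratios of −2.75 ± 0.23 and −2.61 ± 0.39, and Krt4 had −2.0 ± 0.34 (adjusted p = 0.00324 by limma). For the second Krt13 probe the mice were at −3.34, −3.28 and −1.20, and for Krt4 at −2.65, −2.54 and −0.81. Mouse 3 was thus the one nearest to 0 for both genes. Without it the ratios were −3.31 and −2.60.

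The keratins of wounded or fast-dividing epithelium, Krt6a, Krt6b and Krt17, were lower in every mouse. Krt6a was at −2.0, −2.18 and −1.89, Krt6b at −2.58, −2.24 and −1.70, and Krt17 at −2.13, −2.14 and −2.76. All 3 were called, with adjusted p of 8.03e-05, 0.000175 and 8.88e-05 (limma). Krt6a and Krt6b are near-identical copies, so their probes may share signal. Krt16, their usual partner, had a log2 ratio of −0.18 (adjusted p = 0.451 by limma), and 0.01 with median centring. The epidermal Krt10 probes were at −0.60 and 0.06, Krt78 at −0.48 and Krt9 at −0.04, none of them called. The second Krt10 probe turned to −0.08 with median centring.

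Krt1, the type II keratin of differentiating epidermis, went the other way. Its CPE levels were 9.92, 9.61 and 8.43 against 7.26, 7.36 and 6.58 in the reference, which was not well above background on array 3. The log2 ratio was 2.25 ± 0.19 (SE, n = 3, adjusted p = 0.000126), that is 4.77-fold higher in CPE, and it was 2.66, 2.25 and 1.85 in the 3 mice. The CPE ranks were percentiles 84.7, 81.6 and 69.4. This probe (NM_008473, chr15:101673710-101673769) is on the minus strand. The other probe named Krt1 (AK029748, chr15:101676507-101676566) is on the opposite, plus strand, so it is no second reading of the same strand. It was not tested and had ratios of 0.44, 0.12 and −0.10. Krt10, the partner of Krt1 in epidermis, was not higher. The excess of Krt1 thus rests on 1 probe.

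The Krt5 promoter (chr15:101712906-101713155, minus strand, RefSeq GRCm38.p6) is shown as that of the stratified keratin with the largest ratio. It held no exact match of the 3 motifs.
Krt5: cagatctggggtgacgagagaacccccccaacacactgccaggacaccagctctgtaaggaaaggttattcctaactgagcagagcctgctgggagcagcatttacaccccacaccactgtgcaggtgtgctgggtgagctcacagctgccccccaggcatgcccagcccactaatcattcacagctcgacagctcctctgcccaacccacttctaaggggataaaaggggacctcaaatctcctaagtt

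Other markers of surface epithelium were mixed. Of 10 on the list, 9 were tested, 2 were lower and 7 not called. The transcription factor Trp63 was at −2.33 and the corneal enzyme Aldh3a1 at −3.31. The desmosomal cadherins Dsg3 and Dsc3, the cornified envelope gene Sprr1a and involucrin (Ivl) were well above background in CPE in mouse 3 alone. The summed log2 level of the list was 13.9 to 14.1 in CPE and 14.3 to 14.6 in the reference, and Perp, at 13.37, 13.42 and 13.25 in CPE and 14.01, 13.81 and 13.61 in the reference, made up much of it. Whether surface epithelium took part in the keratin ratios was not tested.

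**Figure D3:**
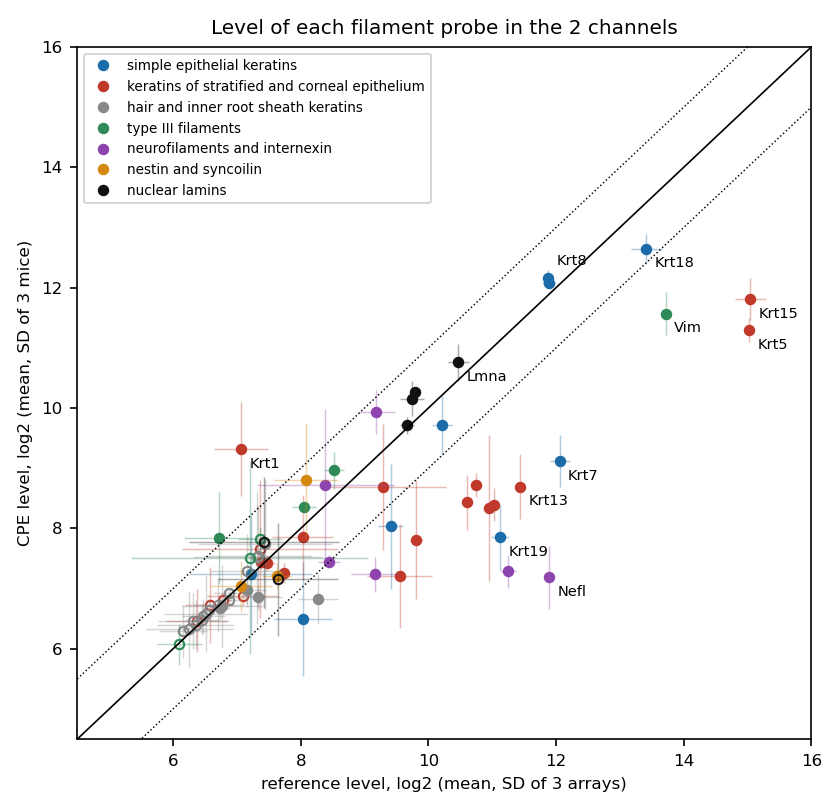
Log2 level in CPE (vertical axis) against that in the reference (horizontal axis) for all 71 filament probes, coloured by role, with the SD over 3 mice or arrays; open symbols were not tested, the solid line marks equal levels and dotted lines a 2-fold difference. Krt8 lay on the line and Krt18 between it and the lower dotted line, while Krt5, Krt15, Vim, Nefl and Krt19 lay far below; most hair keratins sat near the line at the dim end.

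Hair and inner root sheath keratins were at or near background in CPE. Of 20 probes for 19 genes, none was well above background in CPE of mouse 1 or mouse 2, 19 were so in mouse 3 alone and 1 (Krt222) on no array. Krt222 was placed in this group only because no other keratin list named it, so it is not counted as a known hair keratin. In the reference 4 were well above background on all arrays and 20 on array 3. The 16 untested probes had mean log2 ratios between −0.07 and 0.29. Only Krt75, a hair follicle companion layer keratin, was called among the 4 tested. Its CPE levels were 6.81, 7.25 and 6.43 against 8.43, 8.47 and 7.92, a log2 ratio of −1.44 ± 0.16 (SE, n = 3, adjusted p = 0.000455). The CPE signal was well above background in mouse 3 alone, and the ratio was −2.86 by the scanner log ratio. It was not called in a test against a 2-fold change. Krt222 was at −0.47, 1 of the 2 Krt36 probes at −0.18 and Krt32 at −0.07, not called.

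The promoters of the members were searched for the same motifs. Windows of 250 bases were found for 37 of the 55 names (40 windows, 29 of them of keratins). TATAAA stood in 13 of 29 keratin windows (44.8%) and in 12.4% of all 32851 windows. GGGCGG stood in 2 of 29 (6.9%) against 32.7%, and CCAAT in 12 of 29 (41.4%) against 33.8%. By role, TATAAA stood in 10 of 14 windows of hair and inner root sheath keratins. Krt36, Krt42, Krt75 and Krt82 had none. In Krt25, Krt26, Krt28, Krt31, Krt32 and Krt34 the first base of TATAAA lay 29 to 31 bases before the start, as it did in Krt20 and Krt76, which are not hair keratins (29 in both). The window of Krt28 (chr11:99374904-99375153, minus strand, RefSeq GRCm38.p6) is given as an example, with the CCAAT and TATAAA matches in capitals. These are matches of letters and no measurement of binding.
Krt28: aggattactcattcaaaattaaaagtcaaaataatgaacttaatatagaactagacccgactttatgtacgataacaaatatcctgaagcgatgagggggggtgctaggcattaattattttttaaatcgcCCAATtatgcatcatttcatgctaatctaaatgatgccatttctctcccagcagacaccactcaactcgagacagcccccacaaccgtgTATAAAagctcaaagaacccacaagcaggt

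**Figure D4:**
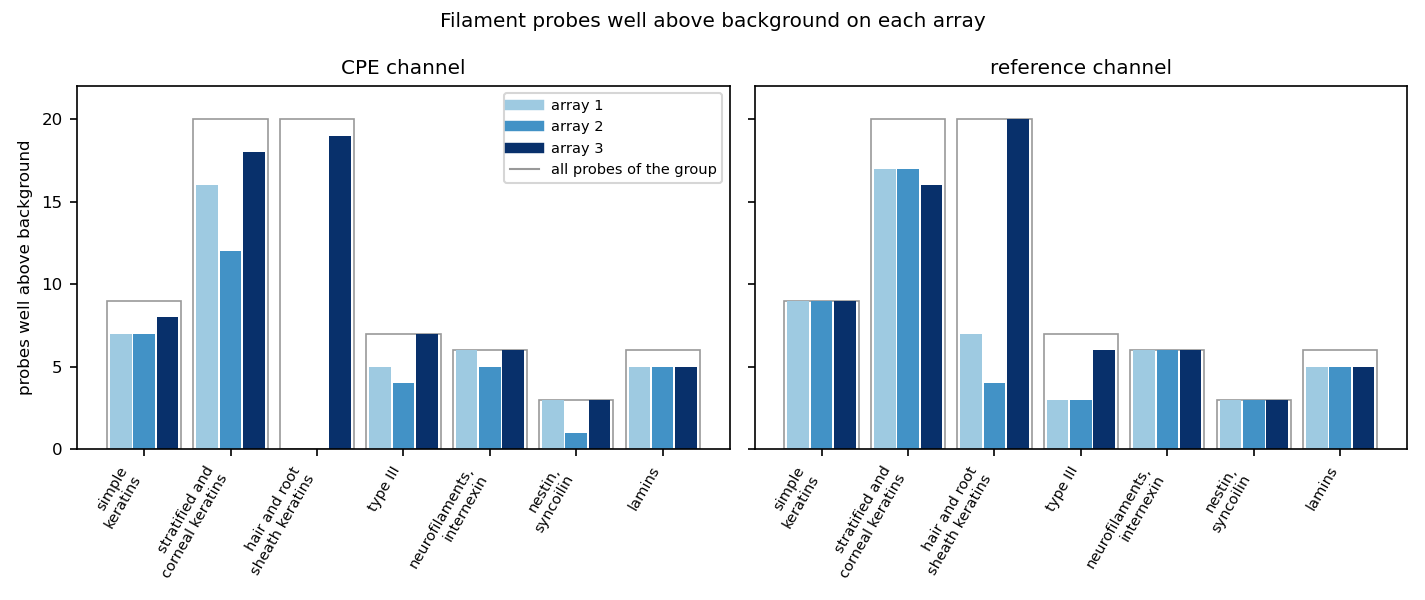
Number of filament probes well above background (vertical axis) by role on arrays 1, 2 and 3, for the CPE channel (left) and the reference channel (right); open bars give all probes of a role. Hair keratins were at 0, 0 and 19 of 20 in CPE of mice 1, 2 and 3, whereas lamins were at 5 of 6 in each.

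By chromosome, the 26 keratin probes of chromosome 11 (chr11:99050073-100081503 in mm8) included 15 tested, of which 6 were lower, 0 higher and 9 not called. The lone Krt15 probe was in the high class there. The 23 keratin probes of chromosome 15 (chr15:101176492-101860003) included 13 tested, of which 8 were lower, 1 higher and 4 not called, with Krt18, Krt8 and Krt5 in the high class. The median log2 ratio was −0.51 on chromosome 11 and −1.44 on chromosome 15. Neighbouring genes differed in ratio within both clusters.

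Among the type III filaments vimentin was high but lower than in the reference. Vim, the filament of mesenchymal cells and of many glia, had CPE levels of 11.16, 11.83 and 11.72 (percentiles 94.2, 96.7 and 96.2) against 13.68, 13.78 and 13.70, with no overlap. Vim had a log2 ratio of −2.15 ± 0.18 (SE, n = 3, adjusted p = 0.00011), that is 4.44-fold higher in the reference, and −1.33 with median centring. The other Vim probe (AK033175) was very low in CPE (percentile 2.16) and was not tested. Beside it, 5 of 6 fibroblast markers and 4 of 5 macrophage markers were lower in CPE, with Col3a1 at −2.24 and Lyz2 at −3.40. Dcn was lower too, with its reference signal near the scanner's ceiling on arrays 1 and 2. Of the fibroblast markers 5 of 6 were in the high class of CPE intensity, with Dcn at percentile 98.3. Of the macrophage markers 2 of 5 were in that class, with Lyz2 at percentile 97.8. The part of stroma and macrophages in the Vim signal was not tested.

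The Vim promoter (chr2:13574061-13574310, plus strand, RefSeq GRCm38.p6) is shown because Vim was both in the high class and called. It held a TATAAA whose first base lay 32 bases before the start and 2 CCAAT matches, 1 on each strand.
Vim: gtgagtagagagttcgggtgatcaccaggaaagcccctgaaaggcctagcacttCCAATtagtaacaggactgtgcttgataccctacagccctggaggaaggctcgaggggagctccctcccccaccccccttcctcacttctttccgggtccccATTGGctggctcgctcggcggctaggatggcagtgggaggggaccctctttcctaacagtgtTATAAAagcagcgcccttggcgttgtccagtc

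Gfap, the filament of astrocytes, was measured by 3 probes that differed. The brightest had CPE levels of 8.84, 9.31 and 8.75 against 8.40, 8.48 and 8.70, and a log2 ratio of 0.44 ± 0.19 (adjusted p = 0.103 by limma), not called. The second (K01347) had 8.25, 8.31 and 6.96 in CPE, and the reference was well above background on no array. It was called higher in CPE (log2 ratio 1.13 ± 0.16, adjusted p = 0.00149), by at least 2.08-fold (1.93 to 2.38 with 1 mouse left out). It lost the call without background correction (0.83), with median centring (0.95) and in a test against a 2-fold change. The third was not tested. Of 6 markers of astrocytes and Müller glia, 1 (Aldh1l1, 1.01) was higher and 4 were lower, among them S100b (−3.45) and Gja1 (−3.43). Of the 3 ependymal markers measured, 2 were higher in CPE (Dynlrb2 4.42, Foxj1 2.98) and Rarres2 (−0.74) was not called. The part of glia and ependyma in the Gfap values was not tested.

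Des, the filament of muscle, had CPE levels of 8.30, 8.31 and 8.45 and reference levels of 7.93, 7.96 and 8.27, a log2 ratio of 0.30 ± 0.15 (adjusted p = 0.153 by limma), not called. Skeletal muscle markers were lower in CPE (5 of 6 tested, Myl1 at −3.38). Of 6 smooth muscle markers, 2 were lower and 4 not called. Acta2 (CPE levels 13.02, 10.38 and 13.18) and Rgs5 (9.87, 8.19 and 10.13) were low in mouse 2. Tagln was at 10.82, 10.45 and 10.53 and Cnn1, highest in mouse 2, at 7.55, 7.90 and 7.53. Their part in the Des values was not tested. Prph, a filament of peripheral neurons, had CPE levels of 6.83, 6.38 and 9.33 and was well above background on array 3 alone in both channels.

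Neurofilament genes fell into lower and not called. Nefl, the light subunit, had CPE levels of 6.68, 7.73 and 7.15 against 11.82, 11.93 and 11.94, the largest ratio among the tested members. Its log2 ratio was −4.71 ± 0.20 (SE, n = 3, adjusted p = 8.99e-06), that is 26.2-fold higher in the reference, and that of its second probe −3.96 ± 0.19. Nefm, the medium subunit, had CPE levels of 6.90, 7.36 and 7.45 against 9.34, 9.42 and 8.73 (log2 ratio −1.93 ± 0.23, adjusted p = 0.000624 by limma). Both genes were at or near the middle of the CPE ranking, Nefl at percentile 54.7 and Nefm at 48.0, which is not far above background. Their uncorrected CPE intensities were 156, 207 and 426 for Nefl and 137, 116 and 627 for Nefm. The CPE background levels of these arrays were 81.2, 82.6 and 363. Their genes neighbour each other on chromosome 14.

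Ina, alpha-internexin, was 1.998-fold higher in the reference and so just missed the call (log2 ratios −0.99, −1.14 and −0.86, adjusted p = 0.00205 by limma). It was called under the scanner software's own background level (−1.06) and log ratio (−1.61), and without mouse 1 (−1.0) or mouse 3 (−1.07). Nefh, the heavy subunit, did not share the direction of Nefl. Its brighter probe had CPE levels of 10.26, 9.99 and 9.55 against 9.5, 9.12 and 8.94, above the reference on each array. The log2 ratio was 0.75 ± 0.15 (adjusted p = 0.00717 by limma), under 2-fold, and 1.29 (called) with median centring. The second Nefh probe was at 0.34. Of 8 neuronal markers, 3 were lower in CPE (Snap25 −3.72, Syt1 −3.56, Uchl1 −1.59), none was higher, and Tubb3 was at 0.14. Whether neurons of the reference took part in the Nefl and Nefm ratios was not tested.

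Nestin (Nes), a filament of neural progenitors and of vessel walls, had CPE levels of 9.26, 9.44 and 7.69 against 8.32, 8.41 and 7.50. Mouse 3 was the lowest of the CPE samples. The log2 ratio was 0.72 ± 0.20 (adjusted p = 0.0247 by limma), under 2-fold, and 0.94, 1.02 and 0.19 in the 3 mice. With median centring (1.12) and the scanner log ratio (1.10) it was called. Of 6 endothelial markers, 1 (Tie1, 1.21) was higher, none was lower and 5 were not called, from Pecam1 (0.95) and Cdh5 (0.94) to Kdr (−0.19) and Tek (−0.33). Their part in the Nes values was not tested. Sync, syncoilin, was at −0.41 and −0.03 by its 2 probes, neither called.

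No nuclear lamin was called. Lmna, the gene of lamins A and C, had CPE levels of 10.75, 11.07 and 10.46 by its brightest probe (percentiles 92.0, 93.7 and 90.7) and reference levels of 10.56, 10.57 and 10.28. The log2 ratios of its 3 probes were 0.29 ± 0.16, 0.48 ± 0.15 and 0.41 ± 0.17, with adjusted p of 0.182, 0.0379 and 0.0896 (limma), each under 2-fold. With median centring 1 of them was called (1.05). Lmnb1, lamin B1, had CPE levels of 9.85, 9.72 and 9.57 and reference levels of 9.64, 9.79 and 9.57. Its log2 ratio was 0.05 ± 0.15 (adjusted p = 0.841 by limma). The Lmnb2 probes were not tested, 1 being well above background on array 3 alone and the other on arrays 1 and 2. The 4 tested lamin probes had a median log2 ratio of 0.35.

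Proteins that anchor filaments were also mixed. Of 12 linker genes, all tested and each read only by its probe brightest over both channels, 2 were higher in CPE, 4 lower and 6 not called. Plec had 5 probes. Plec, plectin, was at 1.32 ± 0.19 and Jup, plakoglobin of desmosomes and adherens junctions, at 1.29 ± 0.24. In single mice Plec was at 1.76, 1.19 and 1.01 and Jup at 1.94, 1.28 and 0.65. The Jup reference intensities on arrays 1 and 2 (137 and 118) were near the reference background levels there (113 and 112). Lower were Pkp1 (−2.80) and Pkp4 (−2.30), plakophilins, and Ppl (−2.10) and Evpl (−1.87), the plakins of the cornified envelope. Desmoplakin (Dsp), the plakin that ties keratins to desmosomes, was at percentile 95.5 in CPE with a ratio of −0.92 ± 0.15 (adjusted p = 0.00262 by limma), under 2-fold. Of 11 lamina and nuclear envelope partners, 1 was lower (Tmpo, −1.15), none higher, and Zmpste24, the protease that matures lamin A, was at 0.92 (adjusted p = 0.00317 by limma), under 2-fold.

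The spread between mice was like that of other probes. Over the 31 members with such signal in CPE and reference on every array, the median SD of the log2 level was 0.36 in CPE and 0.16 in the reference. Over all 17945 such probes these were 0.38 and 0.19. Among the 31 the spread was smallest for Krt8 (SD 0.12 and 0.07 in CPE), Lmna (0.08 for 1 probe) and Des (0.08). It was widest for the second Nefh (1.26) and Krt13 (1.21) probes. Of the 18 lower probes, 12 were nearest to 0 in mouse 3, the array with the highest CPE background level. The share among all lower probes was not counted, so this is not read as a trait of filament genes. For the second Krt13 probe the log2 ratio in mouse 3 was 2.11 above the mean of mice 1 and 2, and 2.16 above it when normexp used the scanner software's background level.

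Some readings moved with the normalization. Median centring in place of loess shifted the median of all tested probes from −0.04 to 0.09 and the calls over all probes from 1833 higher of 4462 to 3744 higher of 5586. Under it 18 members were lower and 5 higher, namely Krt1, 1 Krt8 probe, 1 Nefh probe, Nes and 1 Lmna probe. For Krt8, Krt18, Krt23, Nes and that Lmna probe, mice 1 and 2 rose while mouse 3 stayed near its loess value. After centring, mice 1, 2 and 3 were at 1.65, 1.38 and 0.33 for Nes. They were at 1.46, 1.29 and 0.41 for the Lmna probe and at 0.75, 0.43 and −0.89 for Krt23.

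**Figure D5:**
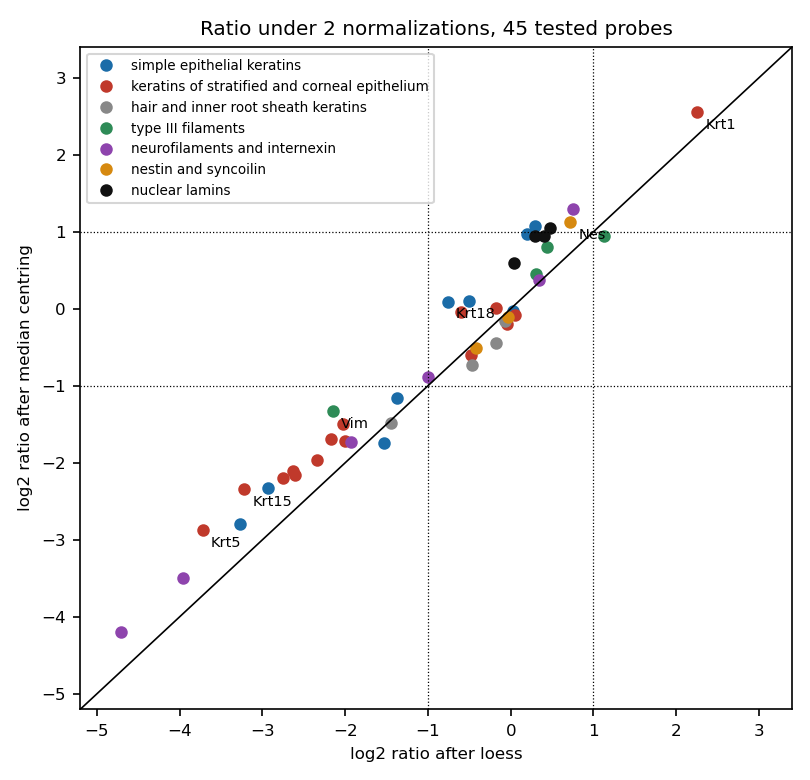
Log2 ratio after median centring (vertical axis) against that after loess (horizontal axis) for the 45 tested filament probes, coloured by role; the solid line marks equal values and dotted lines a 2-fold change. Bright probes such as Krt18, Krt15, Krt5, Vim and the lamins lay above the line, and Krt18 moved from −0.76 to 0.09.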

How the data were processed

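Members and gene lists were chosen with earlier results of these data known. Scanner files of 3 Agilent arrays with both dyes were read. Per the file headers they hold red and green mean intensity and local background, extracted with Feature Extraction 9.5.3.1, and the scanner's log10 ratio of red over green. The table deposited by the authors holds log2 values, which tracked the CPE channel after loess and Aquantile (Spearman's rho 0.998, 0.998 and 0.999) and not the ratio (0.255, 0.201 and 0.142), with medians of 6.97, 6.92 and 6.89. Per the labels R 2.14.0 and limma were used.

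Ratios were computed from intensity with normexp (offset 50) and loess within arrays in limma 3.58.1 (R 4.3.3). Control spots were left out and spots of a probe were averaged. Probes whose CPE or reference signal was well above background on each array were fitted with an intercept and eBayes, and 3 arrays limit the precision. Levels were the same values after Aquantile between arrays. Classes used log2 mean red intensity without background correction after Aquantile, following the methods of the study. Levels of a list were summed on the linear scale and given as log2. The script was tested on simulated data.

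Each sample was grouped by its title. Nothing pairs samples. RNA was amplified, which can change the proportions of transcripts. Every probe of the simple keratins, type III filaments, neurofilaments, nestin, syncoilin and lamins was named, with other keratins called or bounded at 2-fold and up to 5 called genes of each partner list. Partner and marker genes, and the counts of them, rest on the probe of each gene brightest over both channels. Other probes of those genes were not read. Markers named beside results, and Dsp, Zmpste24 and the promoters printed, were chosen after their values were seen. A RefSeq accession matched 55 of the 71 probes to a symbol, of which 2 were renamed. Probe coordinates are those of the array files (mm8), for which no annotation was used here. Alternatives covered background, normalization, filters, the test and each mouse left out.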

Additional observations from a re-analysis of the deposited data

How the results depend on the processing

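The count of filament probes higher in CPE was small and moved with the settings. It was 2 as reported, 1 without background correction, 5 with median centring, 0 among probes well above background in both channels (where neither higher probe was tested, and 5 of 31 had an unadjusted p under 0.05 by limma with a ratio above 0), 1 in a test against a 2-fold change (limma treat), and 2 to 2 with 1 mouse left out. The count of lower probes was 18 as reported, between 14 and 22 under the other settings and 18 to 19 with 1 mouse left out. The high class held 7 probes under each alternative but 1, in which only probes well above background in CPE were ranked (5). Normexp against the scanner software's background level, added after seeing the data, gave 2 higher and 19 lower. For single log2 ratios, each tested probe was counted once under each alternative, so the same probe recurs. Of these pairs of probe and alternative, 417 stayed on their side of the call, 7 lost a call and 12 gained one. No called ratio changed sign.

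With the scanner software's log ratio, values of dim probes were larger: Krt80 −3.60, Krt75 −2.86, Krt17 −3.06, Nefl −5.63 and −4.91, Nefm −2.82, Krt1 4.35 and Gfap 3.28. The Krt80, Krt75, Krt4, second Krt7 and Gfap probes were not called by limma treat. Krt78 (−1.23), Krt222 (−1.58) and 1 Sync probe (−1.05) were called with the scanner log ratio. The cause was not tested. No paired analysis was possible because there is 1 group of samples, all set against the same reference RNA. Dim probes are limited by background: 26 filament probes were well above it in CPE in mouse 3 alone, the array with the highest background level.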

Other observations

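Filament genes outside the naming rule were measured as well. The lens beaded filament genes Bfsp1 and Bfsp2 were lower in CPE (log2 ratios −1.68 ± 0.20 and −2.28 ± 0.15, SE, n = 3, adjusted p = 0.00059 and 4.53e-05 by limma). Of the lens markers, 4 of 5 were lower as well, with Cryaa at −4.60. Synm, synemin, was at 0.22 with 0.78, −0.52 and 0.40 in the 3 mice. Fam83h, which organizes keratin filaments, was at −0.80 (adjusted p = 0.0448 by limma), with −1.25, −1.18 and 0.04 in the 3 mice, and Tchp, trichoplein, at 0.00.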
